A study of Caenorhabditis elegans with 2 samples.

Results

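The heterochronic genes of C. elegans and puf-9, a gene for a Pumilio-family RNA-binding protein, were examined for regions recovered with ZTF-4, a zinc finger protein. The 10 genes were taken from a list of names (puf-9, hbl-1, lin-14, lin-28, lin-29, lin-41, lin-42, lin-46, daf-12 and kin-20), all 10 of which are among the 19985 protein-coding genes of the annotation, and 5 of the 10 lie on the X chromosome. For each, every summit inside the gene or within 5 kb upstream of its 5' end was collected. A summit is the base of strongest enrichment of a region, and the gene plus its 5 kb is called its window.

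The chromatin came from whole L3 larvae of strain OP322, of mixed sex, which carries unc-119(ed3) and an integrated transgene, wgIs322, for ZTF-4 fused to eGFP. The antibody is labelled only as ztf-4. There were 2 biological replicates of this 1 group and no untagged strain among the lists. What drives the transgene and which cells express it are not given in the sources used here. A region is described by its signal, the authors' own enrichment value, and by its rank by signal within a list. The replicate 1 list held 29249 candidate regions, the replicate 2 list 30000 and the pooled list, made from both replicates, 30000. The pooled list is labelled as peaks and background put into the IDR step, so a region in it need not be a peak. The IDR list, thresholded by the irreproducible discovery rate between replicates, held the 704 strongest of the pooled regions, down to a signal of 35.9. The depth in reads is unknown. No list held a summit in the window of ztf-4 itself, and that of unc-119 held 7 pooled summits (strongest signal 29.4).

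Heterochronic genes set which cell fates are expressed at which larval stage, above all in the seam cells of the skin. The microRNA lin-4 turns down lin-14 and lin-28 after the early stages, and let-7 and its relatives turn down hbl-1, lin-41 and daf-12 later, which lets lin-29 start the adult programme. Loss of puf-9 delays these fates, and PUF-9 acts through the 3' UTR of hbl-1. ChIP-seq lists show where DNA was recovered with ZTF-4, and the pooled list holds background as well. They do not show whether ZTF-4 alters the expression of these genes.

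The sequences at 4 summits are shown. Those of puf-9, kin-20 and lin-14 are the strongest 3 at these genes, and that of lin-42, a weaker summit outside the IDR list, is shown because it holds the word described next. They are from the ce11 sequence (RefSeq WBcel235), run 5' to 3' on the strand of the named gene, and capitals mark GACGCA or its reverse complement TGCGTC, the leading 6-base word at ZTF-4 peaks over the whole genome in earlier work on these lists. The puf-9 line is the whole pooled region, chrX:5841222-5841415 on the plus strand, with the summit at base 76. The kin-20 line is chrX:15275413-15275513 on the minus strand, the lin-14 line chrX:11467424-11467524 on the plus strand and the lin-42 line chrII:1246961-1247061 on the minus strand, each with the summit at base 51.
puf-9: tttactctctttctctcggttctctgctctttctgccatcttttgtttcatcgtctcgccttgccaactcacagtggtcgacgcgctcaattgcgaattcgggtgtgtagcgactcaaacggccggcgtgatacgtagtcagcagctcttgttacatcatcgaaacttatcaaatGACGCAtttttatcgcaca
kin-20: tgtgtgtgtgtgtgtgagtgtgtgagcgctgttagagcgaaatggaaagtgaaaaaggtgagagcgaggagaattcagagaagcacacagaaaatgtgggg
lin-14: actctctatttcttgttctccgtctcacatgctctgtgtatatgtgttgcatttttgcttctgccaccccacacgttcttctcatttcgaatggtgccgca
lin-42: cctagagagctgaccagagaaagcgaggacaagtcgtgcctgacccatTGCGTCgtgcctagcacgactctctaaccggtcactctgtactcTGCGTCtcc

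In these lines the word stands at base 176 of the puf-9 region, outside the 50 bp on either side of its summit, and starts at bases 49 and 93 of the lin-42 sequence, where the earlier match covers the summit. The kin-20 and lin-14 sequences hold no match. Within 50 bp of the summit, 12 of the 145 pooled summits at the 10 genes held the word (8.28%), against 3.21% of all 30000 pooled summits and 15.6% of the 704 IDR summits. None of the 5 IDR summits at these genes held it in that window. The 12 lay at lin-42 (3), daf-12 (2), hbl-1 (2), kin-20 (2), lin-14 (1), lin-28 (1) and puf-9 (1). A match is a string of letters and not a mapped binding site.

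The windows of puf-9, kin-20, lin-14, lin-41 and lin-28 each held 1 IDR summit, and those of lin-46, lin-42, daf-12, hbl-1 and lin-29 held 0. That is 5 of 10 genes, against 5.37% of all protein-coding genes under the same rule, which is a description, since the genes were chosen with results of these data known. Longer windows hold an IDR summit more often: 4.46% of windows under 8 kb, 6.82% of those of 8 to 12 kb, 8.04% of those of 12 to 20 kb and 10.1% of those of 20 kb and over. By these classes the counts were 0 of 1 (lin-46), 2 of 3 (puf-9 and lin-28, not hbl-1), 2 of 2 (kin-20 and lin-41) and 1 of 4 (lin-14, not lin-29, lin-42 or daf-12). On X the share of genes with an IDR summit was 5.27% of all genes and 14.5% of the 55 genes with windows of 20 kb and over. In the stronger 352 IDR regions 3 of the 10 genes were left (puf-9, lin-14 and kin-20), against 2.95% of all genes. In the 1408 strongest pooled regions lin-46 was added, giving 6 of 10, against 9.61% of all genes, 7.94% of genes with windows under 8 kb, where lin-46 falls, and 27.3% of X genes with windows of 20 kb and over, where lin-14 and daf-12 fall. Windows of neighbouring genes overlap, so 1 summit can count for several genes in these shares.

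**Figure D1:**
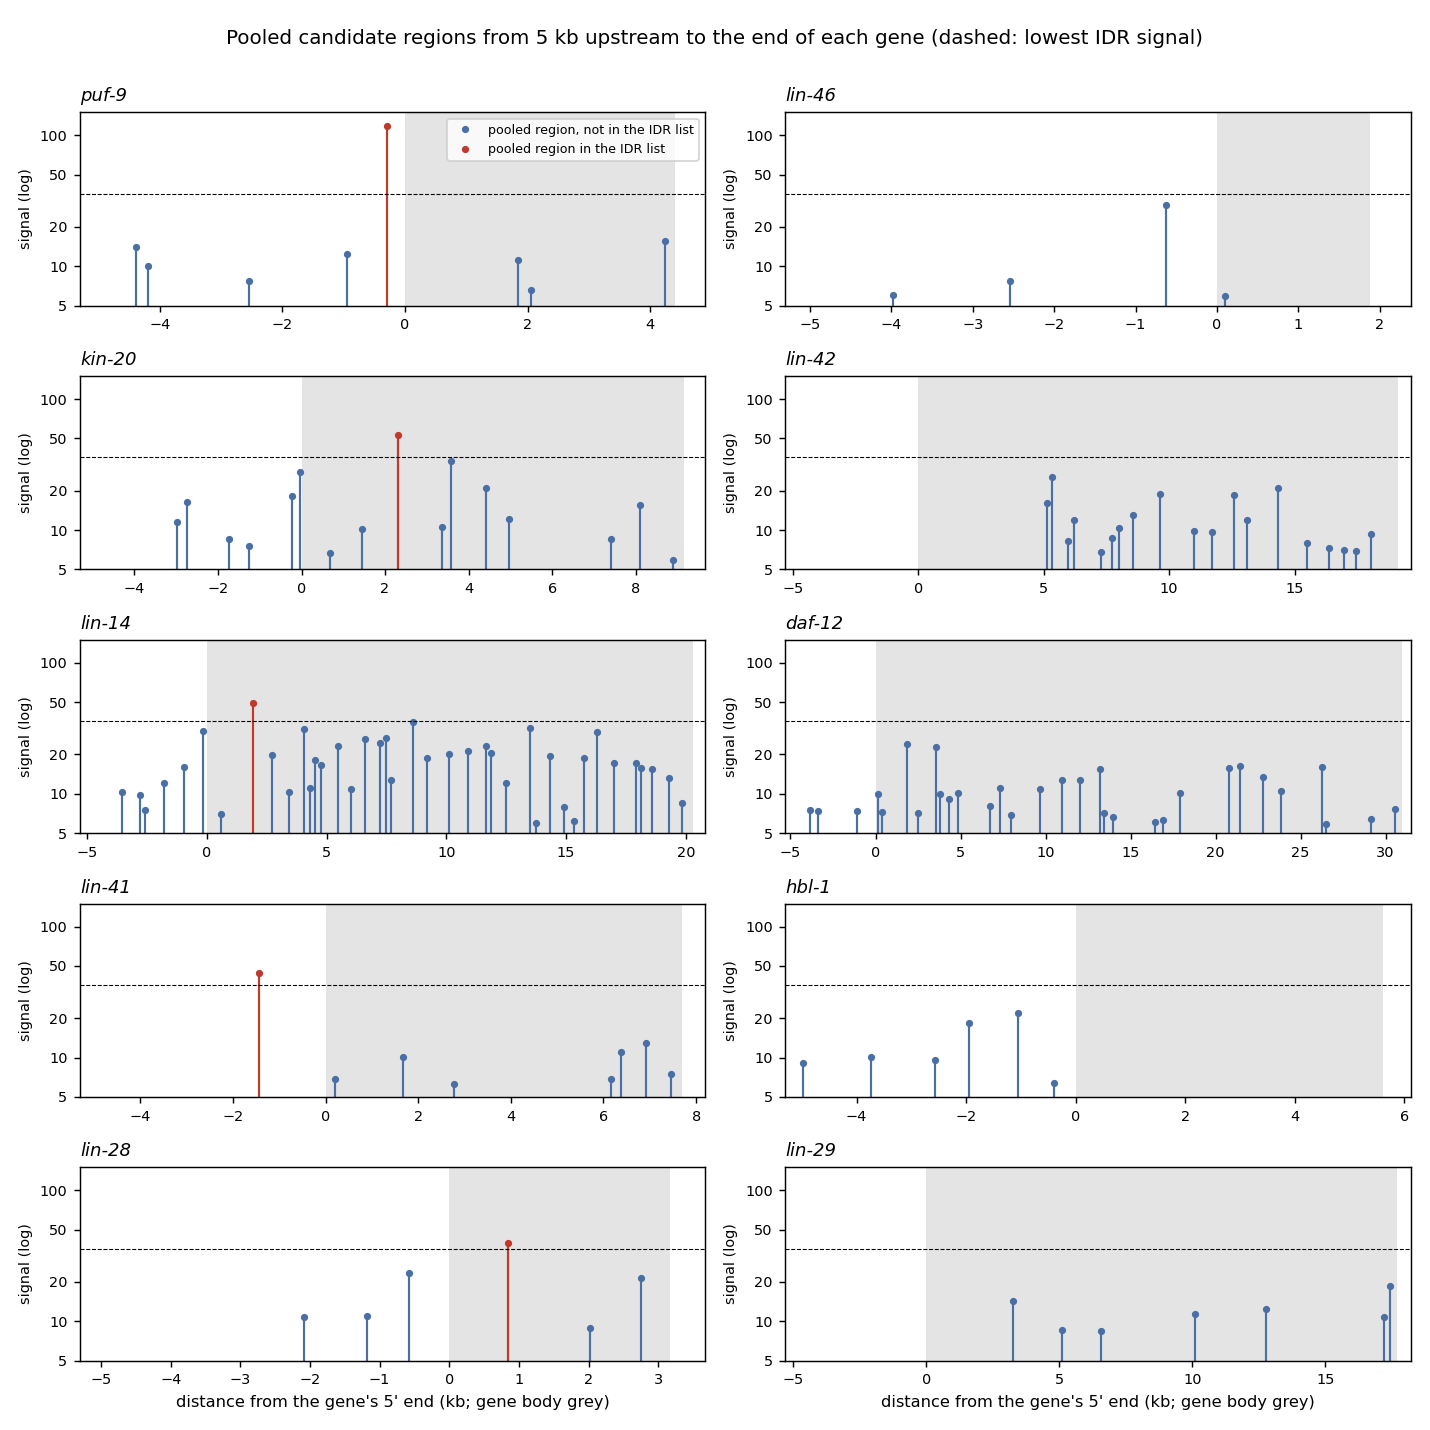
Signal (log axis) of each pooled region against the distance of its summit from the gene's 5' end, for the 10 genes ordered by their strongest region. The red points are the 5 IDR summits, at puf-9, kin-20, lin-14, lin-41 and lin-28, the grey band is the gene and the dashed line is the lowest IDR signal, 35.9.

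All 10 windows held summits in the pooled list, as did 60.2% of all protein-coding genes, and all 10 held summits in the replicate 1 and replicate 2 lists, as did 73.5% and 63.7% of all. By length class the pooled shares of all genes were 52.6% under 8 kb, 71.9% at 8 to 12 kb, 83.7% at 12 to 20 kb and 95.8% at 20 kb and over, so having some candidate region sets a long gene apart from few others. There were 145 in 170.027 kb, or 0.853 per kb, against 0.289 per kb over the windows of all protein-coding genes and 0.33 per kb over the whole X chromosome. These densities count every entry of the pooled list, background included. Each of the 10 genes had more pooled summits per kb than the median gene of its length class, from 0.308 per kb in lin-29 to 1.58 per kb in lin-14. Of the 145 summits, 112 lay inside the named gene and 33 upstream. By annotation 88 were in introns of protein-coding genes, 25 intergenic, 14 in coding exons, 11 in 3' UTRs, 4 in non-coding genes and 3 in 5' UTRs. Of the 88 in introns, 28 were at lin-14, 25 at daf-12 and 15 at lin-42, which have long windows. These counts grow with the length of each part, and no share over all pooled summits was set beside them.

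Most of these regions were weak. Their median signal was 11.04, against 9.48 in the whole pooled list, whose lowest signal was 5.79. The deposited −log10 q-value reached its ceiling of 3.15 at 18 of the 145 (12.4%), against 7.04% of all pooled regions. Of these 18, 9 were at lin-14, which also had 40 of the 145 summits and the highest median signal, 17.2. At the summit of median signal among the 145, which lay 1185 bp upstream of lin-28, the −log10 q-value was 0.538. A partner is a reciprocally nearest summit within 100 bp. Partners in both replicate lists were found for 38 of the 145 (26.2%), against 20.4% of all pooled summits. In the replicate 1 list alone the shares were 45.5% and 36.5%, and in the replicate 2 list 64.8% and 67.5%. Partners within 100 bp are easier to find where summits are dense, as at these genes. The part of density in these shares was not tested. All 5 IDR summits at these genes had partners in both lists, as did 84.2% of all IDR summits.

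The summit at puf-9 stood apart from every other summit at these genes. Its signal was 117.5 (rank 36 of the pooled list), and its partners had signals of 34.9 in replicate 1 (rank 43) and 84.4 in replicate 2 (rank 39). Signals are not comparable between lists, but the 3 ranks were all among the strongest 50. The summit, at 5841297 on X, was 295 bp upstream of the 5' end of puf-9 and 1519 bp from that of dct-11, the next nearest. It lay inside the annotated short non-coding RNA genes W06B11.7 and W06B11.9, which overlap on opposite strands. The summits of replicates 1 and 2 were 23 and 1 bp away. The region was 194 bp wide, where the median IDR region was 370 bp. Of the 100 strongest IDR regions, 61 were narrower than that median.

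Of 4533 protein-coding genes with windows of 8 to 12 kb, 7 had a stronger pooled summit than puf-9 (0.154%). This summit led all 132 IDR summits on X, the next having a signal of 116.8, at a site 4896 bp from the 5' end of xol-1, the closest of a protein-coding gene. puf-9 was listed with results of these data known, so this height is a description. Its other 7 pooled summits had signals from 6.55 to 15.6, and the strongest was 7.53 times the next. That next summit, in the 3' UTR, had no partner in either replicate list. In replicate 1 a region inside puf-9, 3534 bp from its 5' end, had a signal of 13.6 (rank 742) and was no partner of a pooled summit.

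hbl-1, a gene for a Hunchback-like zinc finger factor and the reported target of PUF-9, lies on the same strand 13836 bp upstream of puf-9, with 3 protein-coding genes (acp-5, F13D11.4 and dct-11) between them. Its strongest pooled summit had a signal of 21.8 (rank 2522), with partners at rank 5439 in replicate 1 and rank 3287 in replicate 2, and lay 1056 bp upstream of the 5' end. A further summit 1948 bp upstream had a signal of 18.2, with partners at ranks 5102 and 10473. All 6 pooled summits of hbl-1 lay upstream, between 396 and 4983 bp, and 0 lay inside its 5614 bp. The replicate lists did hold weak regions inside hbl-1, at 2319 bp in replicate 1 (signal 2.47, rank 23880) and 5150 bp in replicate 2 (signal 8.92, rank 11580). In its length class 18.8% of genes had a stronger summit. Between the end of hbl-1 and the start of puf-9 there were 12 pooled summits, of which 7 were more than 5 kb from puf-9 and had signals of at most 19.7.

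lin-14, a gene for a DNA-binding protein of the early stages and a target of lin-4, held the most regions. Its window of 25.3 kb had 40 summits in the pooled list, 40 in the replicate 1 list and 32 in the replicate 2 list. None of the 403 other genes with windows of 20 kb and over had more pooled summits per kb. Pooled regions covered 53.5% of the window, replicate 1 regions 54% and replicate 2 regions 44.5%. Of the 40 pooled summits, 34 lay inside the gene and 28 in introns. Their median signal was 17.2, the highest of the 10 genes, and 14 had signals over 20.

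The IDR summit of lin-14 had a signal of 49.3 (rank 288), with partners at rank 348 in replicate 1 (signal 18.2) and rank 490 in replicate 2 (signal 31.2). It lay in an intron 1914 bp downstream of the 5' end, at chromosome X 11467289 to 11467658, in a stretch also annotated as the non-coding RNA gene T25C12.7. The next summit, 8589 bp downstream, had a signal of 35.4 (rank 728), just below the end of the IDR list, with partners at ranks 1915 and 847. A summit at 13472 bp had a signal of 31.6 and the highest signal of the gene in replicate 2 (34.4, rank 358), but no partner in replicate 1. The strongest replicate 1 regions after the IDR site, at 7758 and 12471 bp (ranks 408 and 523), were partners of pooled summits with signals of only 12.7 and 12.2, and had none in replicate 2. Signal was thus spread along the gene. Partners in both replicates were found for 12 of the 40 pooled summits (30%), against 20.4% of all pooled summits. Summits are dense here, and the part of density in this share was not tested.

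**Figure D2:**
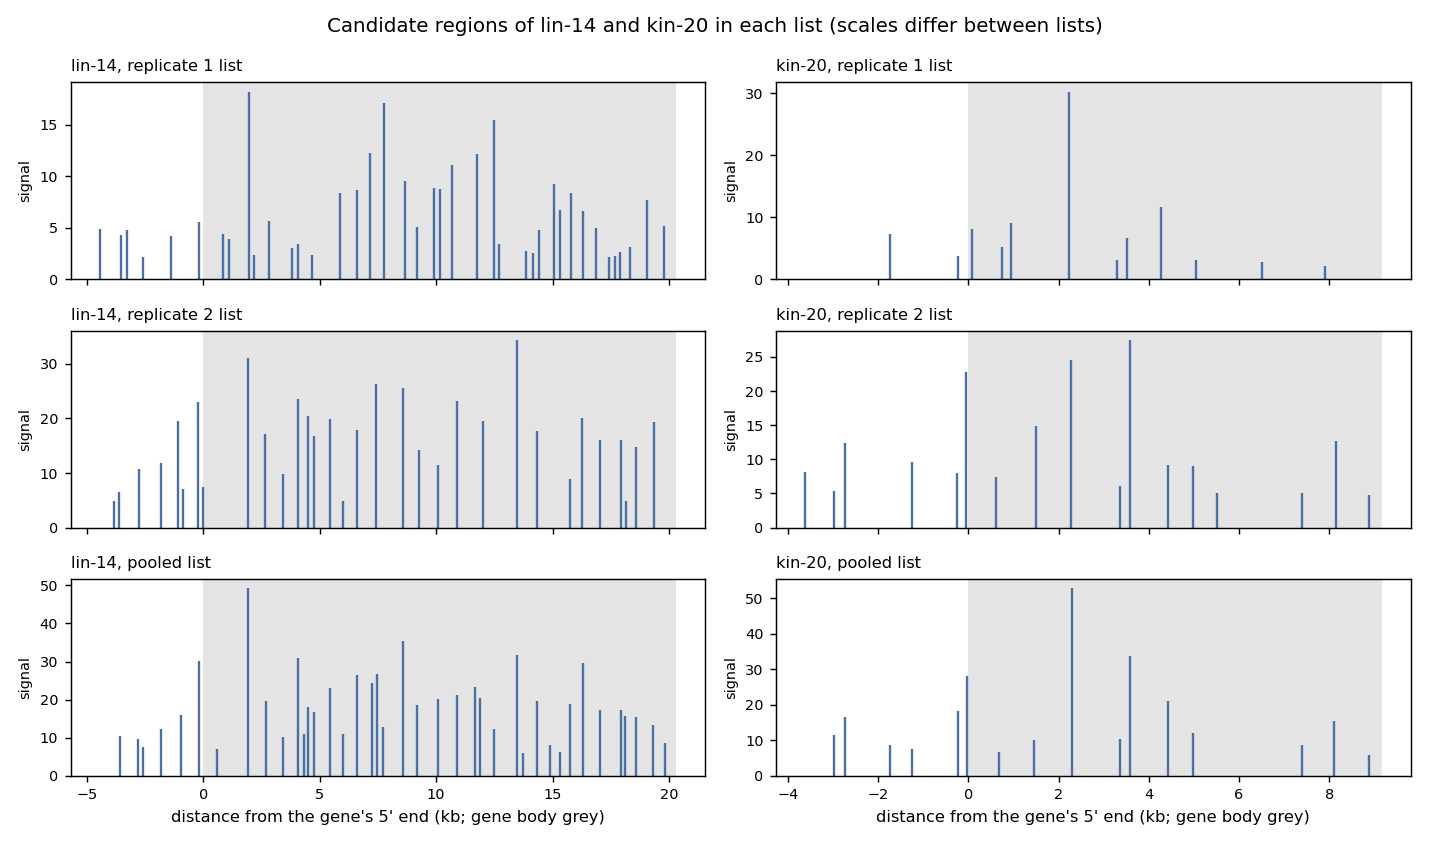
Signal of every candidate region of lin-14 (left) and kin-20 (right) against the distance of its summit from the gene's 5' end, in the replicate 1, replicate 2 and pooled lists, each on its own scale. In lin-14 regions run along the whole gene in all 3 lists (40, 32 and 40 summits), and in kin-20 the site at 2301 bp leads the replicate 1 and pooled lists.

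lin-28, a gene for an RNA-binding protein that blocks let-7 maturation, had its IDR summit at a signal of 40.0 (rank 532). It spanned chromosome I 8409782 to 8410151. The summit was 837 bp downstream of the gene's outermost 5' end, in an intron of the longer transcript, and 47 bp upstream of the 5' end of the shorter transcript. Its partner in replicate 2 had rank 484 (signal 31.3) and that in replicate 1 rank 1614 (signal 10.3), outside the strongest 704. The strongest replicate 1 region of the window was elsewhere, 2305 bp upstream (signal 11.8, rank 1087). Further pooled summits lay 576 bp upstream (signal 23.3) and in the 3' UTR (signal 21.3), and both had partners in both replicates.

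lin-46, which encodes a gephyrin-like protein that acts against hbl-1 and downstream of lin-28, had no IDR summit. Its strongest pooled summit had a signal of 29.3 (rank 1204), with partners at ranks 3833 and 1511 in replicates 1 and 2. It lay 626 bp upstream of lin-46 but closer, at 247 bp, to the 5' end of R186.8, so the site cannot be given to lin-46 by position. The other 3 pooled summits of this window had signals of at most 7.68.

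lin-41, a gene for a TRIM-NHL protein repressed by let-7, had 1 strong region upstream. The summit had a signal of 44.3 (rank 401), with partners at rank 925 in replicate 1 (signal 12.6) and rank 430 in replicate 2 (signal 32.4). It was intergenic, 1445 bp upstream of the 5' end, and no other protein-coding 5' end was within 5635 bp. The region spanned chromosome I 9343756 to 9344125. The other 7 pooled summits were inside the gene with signals from 6.30 to 13.0. In both replicate lists the strongest region of lin-41 was the partner of this site.

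lin-29, a gene for the zinc finger factor that acts last in the pathway, had the lowest strongest pooled signal of the 10, though the median over its pooled summits (11.3) was not the lowest. That strongest summit, in the 3' UTR 17415 bp from the 5' end, had a signal of 18.7 (rank 3643) and was closer to hmg-12, whose 5' end was 1415 bp away. It had a partner in replicate 1 (rank 9714). In replicate 2 the strongest region of lin-29 (signal 12.4, rank 5630) was at 17304 bp, beyond the 100 bp limit. None of its 7 pooled summits had partners in both replicates, and none was upstream or closer to the outermost 5' end than 3254 bp downstream. The gene has 3 transcript 5' ends, and a summit at 12754 bp (signal 12.4) lay 1151 bp upstream of an internal one. The replicate lists did hold weak regions near the start, at 397 bp in replicate 1 (signal 3.94, rank 12565) and at the 5' end itself in replicate 2 (signal 6.07, rank 21865). In its length class 41.1% of genes had a stronger summit.

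lin-42 and kin-20 are the worm relatives of the insect clock genes Period and doubletime, and kin-20 encodes a casein kinase 1. The IDR summit of kin-20 had a signal of 52.9 (rank 237). Its partners ranked far apart, at 74 in replicate 1 (signal 30.3) and 954 in replicate 2 (signal 24.5). It spanned chromosome X 15275278 to 15275647 in an intron, 2301 bp downstream of the gene's 5' end and 1674 bp upstream of the nearest 5' end of a shorter transcript. In replicate 2 the strongest region of kin-20 was the partner of a pooled summit at 3574 bp (signal 33.8, rank 816, replicate ranks 4540 and 688), which was 401 bp upstream of a shorter transcript's 5' end. A summit 30 bp upstream of the gene's 5' end had a signal of 28.0 (rank 1350) and a partner in replicate 2 only (rank 1198). Of 1493 genes with windows of 12 to 20 kb, 41 had more pooled summits per kb and 40 had a stronger one.

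lin-42 had 19 pooled summits, all between 5141 and 18034 bp downstream of its outermost 5' end and none upstream. The gene has 5 transcript 5' ends. Summits at 15488 bp (signal 8.03) and 8564 bp (signal 13.0) lay 98 and 240 bp downstream of internal ones. The strongest, with GACGCA at the summit as shown above, had a signal of 25.6 (rank 1670) at 5348 bp and a partner in replicate 1 only (rank 1281). The strongest replicate 2 region (signal 20.4, rank 1623) was at 5215 bp and paired with a pooled summit at 5141 bp that also held the word. A summit at 14344 bp had a signal of 21.01, partners at ranks 6082 and 4025, the word, and 73.3% GC within 50 bp, the highest of all 145. The median over the 145 was 38.6% GC. Past the 3' end of lin-42, outside its window, an IDR summit of signal 39.1 (rank 560) lay 154 bp from the end of the gene.

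daf-12, a gene for a nuclear hormone receptor that couples stage to steroid signals and is a target of let-7, has the longest window at 36 kb and no IDR summit. Its 31 pooled summits amounted to 0.862 per kb, and 32 of 404 genes in the class had more. The strongest had signals of 23.9 (rank 2006, replicate ranks 3929 and 2046) at 1827 bp and 22.7 (rank 2270, replicate ranks 10627 and 1668) at 3583 bp downstream of the 5' end, both in introns. The strongest replicate 1 region (signal 11.05, rank 1308) was at 1559 bp. Of the 31, 6 had partners in both replicates, and 27.7% of the class had a stronger summit.

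**Figure D3:**
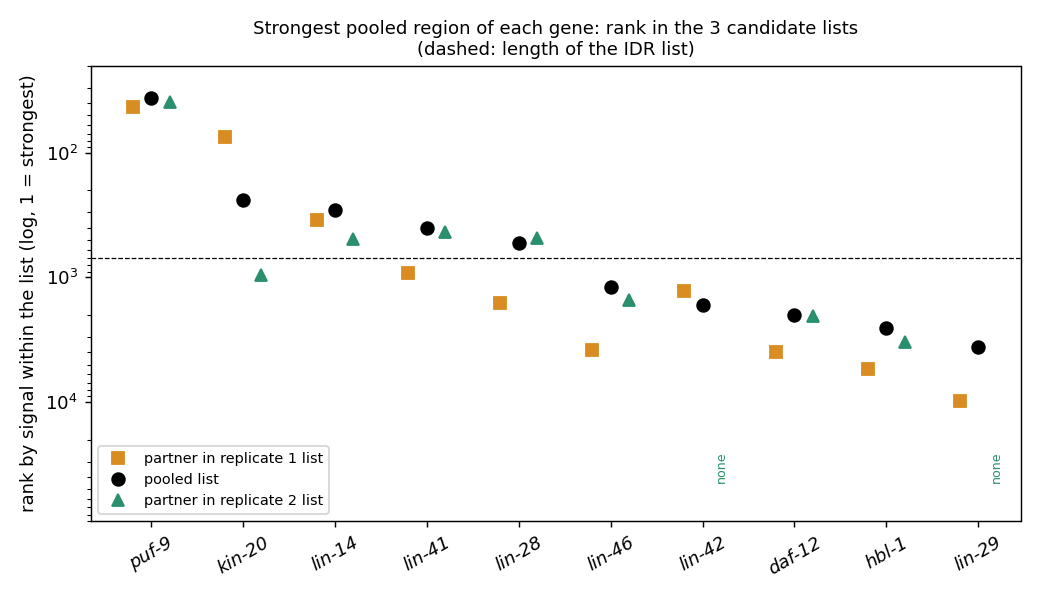
Rank by signal (log axis, strongest at the top) of the strongest pooled summit of each gene in the pooled list and of its partners in the replicate lists. puf-9 stays between ranks 36 and 43 in all 3 lists, kin-20 moves between 74 and 954, and lin-42 and lin-29 have no partner in replicate 2.

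In order of their strongest pooled signal the genes were puf-9, kin-20, lin-14, lin-41, lin-28, lin-46, lin-42, daf-12, hbl-1 and lin-29. puf-9 led in both replicates, but the next gene differed. In replicate 1 it was kin-20 (rank 74, against 43 for puf-9), and in replicate 2 it was lin-14 (rank 358, against 39 for puf-9). Among the strongest 704 regions of each replicate, replicate 1 had regions at 3 of the 10 genes (puf-9, lin-14 and kin-20; 4.83% of all protein-coding genes), and replicate 2 at 5 (also lin-28 and lin-41; 5.41% of all genes). In replicate 2 the kin-20 region so placed was that at 3577 bp, not the partner of the IDR summit. With no replicate variance in the lists, no spread can be set beside this order, and whether its neighbours differ was not tested.

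**Figure D4:**
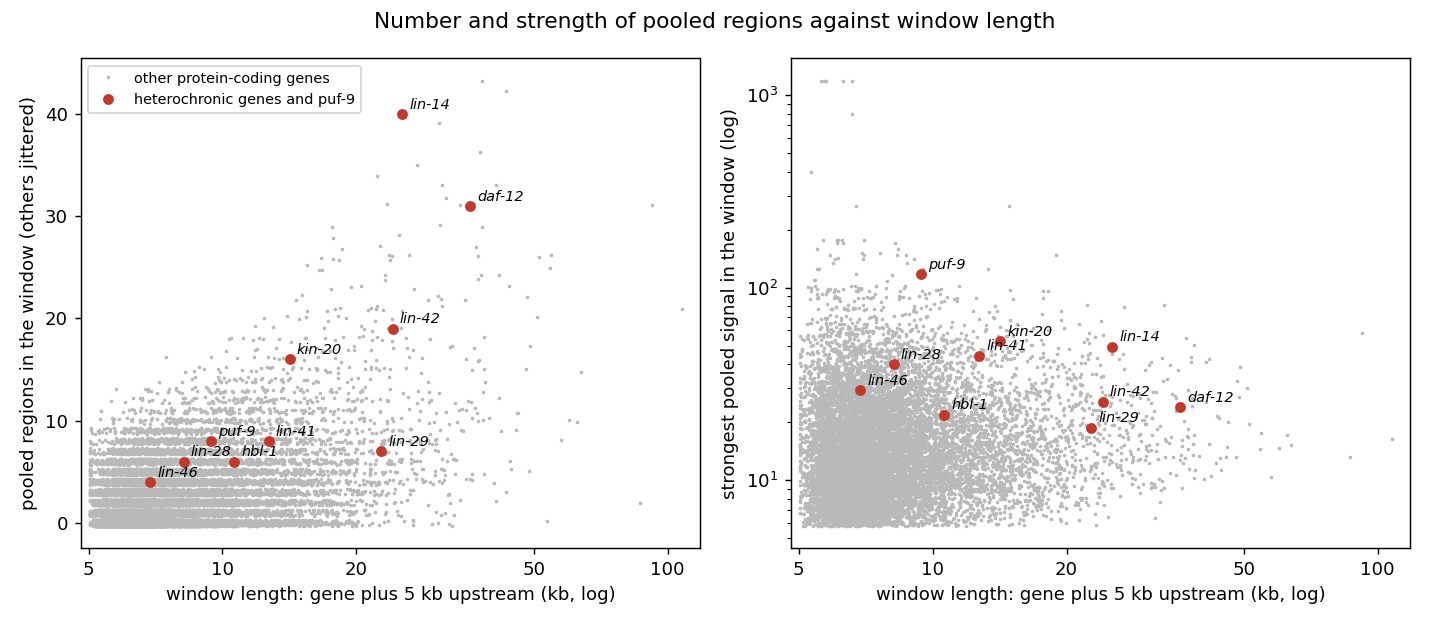
Number of pooled regions (left) and strongest pooled signal (right, log axis) in the window of each gene against window length (log axis), for the 10 genes (red) and all other protein-coding genes (grey, the counts jittered, and without those that have no region at right). lin-14 has 40 regions in 25.3 kb, and puf-9 has the highest signal of the 10, 117.5. The highest grey points of the right panel include mitochondrial genes, which have short windows.

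Other genes of the pathway were taken from a list of 29, all matched in the annotation. Of the 24 that code for proteins, 4 had an IDR summit (16.7%, against 5.37% of all protein-coding genes). By window length the share of all genes was 6.82% at 8 to 12 kb, where ain-1 and nhl-2 fall. It was 10.1% at 20 kb and over, where sea-2 and din-1 fall. This list too was chosen with results of these data known. ain-1, a gene for a GW182 protein of the microRNA silencing complex on X, had a summit of signal 87.4 (rank 71) 1008 bp upstream, with a partner at rank 51 in replicate 1. It had none in replicate 2, where the strongest region of the window had rank 78. nhl-2, a gene for a TRIM-NHL cofactor of microRNA silencing, had a summit of signal 84.7 (rank 75, replicate ranks 28 and 165) 836 bp upstream, which was closer to tag-340 at 587 bp. sea-2, a gene for a zinc finger protein that acts on lin-28, had a summit of signal 45.4 (rank 372) in an intron.

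din-1, a gene for a corepressor of DAF-12, had 4 IDR summits, more than any of the 10 genes. The strongest had a signal of 66.7 (rank 124, replicate ranks 508 and 123) 3886 bp upstream, and the others, at 732 and 1567 bp upstream and 13488 bp downstream, had signals of 51.9, 36.3 and 36.8. The last lies at the annotated snoRNA gene F07A11.15, within an intron of din-1.

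Among the 5 microRNA genes of the list, mir-241 and mir-48, relatives of let-7 in 1 cluster, shared an IDR summit of signal 40.8 (rank 508) 2100 and 3874 bp upstream, with a partner in replicate 2 (rank 494) and none in replicate 1. let-7 had a pooled summit of signal 33.4 (rank 835, replicate ranks 1387 and 1291) 1853 bp upstream, but 129 bp from the 5' end of C05G5.2. lin-4 had 1 pooled summit (signal 16.3) and mir-84 had 2 (at most 9.21). Of the rest, the strongest were myrf-1 (33.8), nhr-85 (31.0) and myrf-2 (30.8), and no pooled summit was in the windows of dcr-1, daf-36 or bro-1.

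The other 11 genes of the Pumilio family, 2 of them pseudogenes, had no IDR summit, where 5.37% of all protein-coding genes had one, so a count of 0 in a list of this size does not set puf-9 apart from its family. Pooled summits were in 3 of the 11 windows, against 60.2% of those of all protein-coding genes. They were those of puf-12 (strongest signal 21.6, and closer to pas-7), puf-3 (17.3) and the pseudogene puf-10 (6.31). By window length the share of all protein-coding genes was 52.6% under 8 kb, where most of the 11 fall. It was 71.9% at 8 to 12 kb, where the others fall. The windows of fbf-1, fbf-2, puf-4, puf-5, puf-6, puf-7, puf-8 and puf-11 held 0 pooled summits.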

How the data were processed

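ChIP-seq of eGFP-tagged ZTF-4 in L3 larvae was used as ce11 peak lists in narrowPeak form. Per the deposited inventory text, the candidate lists derive from the alignments and a further file, also named as a source of the control-normalised tracks but not described, and the IDR list from the candidate lists. Whether and against which control regions were called, the caller, the aligner and the IDR threshold are not given in the sources used here. The signal is the authors' value per region, as deposited, and was used only within a list. The deposited −log10 q-value has a ceiling and was not used for ranking or to leave out weak regions. ce10 lists were not used, since no gene models of that build were at hand.

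Summits (start plus offset, 1-based) were placed in windows of Ensembl release 115 genes (WBcel235, the same assembly as ce11), from 5 kb upstream of the outermost 5' end to the gene's end. let-7, puf-4 and puf-10 were found by their RefSeq symbol and identical position. Python 3.11.15 with numpy 2.4.6, pandas 2.3.3 and matplotlib 3.10.9 was used, and placement and pairing were tested on simulated positions.

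The genes, the further lists and the word GACGCA were chosen with earlier results of these data known. No test was made, since there is 1 group with no comparison group. Shares of all protein-coding genes are given instead. Named are all 10 genes, their IDR and strongest pooled summits, nearer genes, and from the other lists the genes with an IDR summit and the 3 strongest others. lin-4, mir-84, let-7, genes without summits and further summits of the 10 genes were named after their values were seen. Alternatives were upstream reaches of 2 and 10 kb or to the next coding gene, region overlap, the 352 strongest IDR regions, the 1408 strongest pooled regions, each replicate's own strongest 704, and partners within 50 or 200 bp or by 50% overlap.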

Additional observations from a re-analysis of the deposited data

How the results depend on the processing

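The count of 5 genes with an IDR summit was 5 with upstream reaches of 2 and 10 kb and when the reach ended at the next coding gene. It was 3 in the 352 strongest IDR regions (puf-9, lin-14 and kin-20, against 2.95% of all genes), 6 by region overlap (with lin-42) and 6 in the 1408 strongest pooled regions (with lin-46, against 9.61%). Without 1 replicate it lay between 3 and 5, with 3 in replicate 1 alone. The 145 pooled summits were 129 to 166 across the upstream alternatives and region overlap, and 130 and 131 in single replicates. Summits with partners in both replicates were 38, and 24 within 50 bp, 51 within 200 bp and 57 by overlap. Strongest signals did not move with the reach. No paired analysis was possible because there is 1 group. Depth is unknown, no control list was used, and recovery of the same sites without ZTF-4 was not tested.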

Other observations

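The 5-base word GAGAG or its reverse complement CTCTC lay within 50 bp of the strongest pooled summit at 7 of the 10 genes (kin-20, lin-14, lin-41, lin-28, lin-42, daf-12 and hbl-1). It did so at 22.8% of the 145 summits, against 16.1% of all pooled summits and 37.4% of IDR summits. No share over the strongest summits of all genes was set beside the 7. The word was chosen after the sequences were seen, and no test was made. IDR summits are richer in GC than pooled summits, with medians of 46.5% and 33.7% in the nuclear genome, and the part of base composition in either word's share was not tested.

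Near the limit of 5 kb, the outermost summit of hbl-1 at 4983 bp had a signal of 9.16. Just outside it were a summit of puf-9 at 5252 bp (signal 7.85), of lin-46 at 5435 bp (16.8) and of lin-28 at 5471 bp (6.47).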
